A study of Mus musculus with 8 samples.

Results

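The genes described here are 10 genes of calcium handling at the sarcoplasmic reticulum, the internal calcium store of the muscle cell. They were taken by symbol from the deposited count table: Ryr2, Itpr2, Trdn and Asph for calcium release, Atp2a2, Pln and Sln for uptake, Casq2 and Hrc for storage, and Slc8a1 for exchange across the cell membrane. All 10 have a row among the 48440 entries, and all 10 were among the 13771 genes with enough counts to be tested. The RNA came from purified cardiomyocytes of C57BL6/J mice, 2 days after birth, and the labels name no treatment. Each of 4 litters gave 1 male and 1 female heart, which makes 8 libraries, 4 of each sex and 2 of each litter. A library is 1 heart, and how the cells were purified is not given in the sources used here.

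In a heart muscle cell, an action potential lets a little calcium in through the cell membrane, which opens the ryanodine receptor in the sarcoplasmic reticulum and releases far more. The cell relaxes when the SERCA pump, held back by the small membrane proteins phospholamban and sarcolipin, takes calcium back into the store, and the sodium-calcium exchanger removes the rest from the cell. In newborn hearts the store and the membrane system that couples to it are still immature, and transport across the cell membrane is known to carry more of the calcium than in the adult.

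Libraries held between 14226342 and 24910243 counts, and levels are given as CPM, read counts scaled to a common library size, after a TMM correction of each library's total for its composition. Summed CPM of 8 cardiomyocyte markers ran from 58358 to 80960, against 32.4 to 243 for 8 fibroblast markers and 18 to 169 for 8 endothelial markers. Of 13 skeletal muscle markers, Myod1 and Myf5 had 0 counts in all 8 libraries and 9 had a mean under 1 CPM. Mitochondrial genes took 13.4 to 15.2% of counts in 7 libraries and 18.5% in the male of litter 4.

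Pln and Atp2a2 stood highest when levels were divided by length. Pln, which encodes phospholamban, had a mean of 2204 ± 154 CPM per kb of annotated exon (SD, n = 8), and Atp2a2, the gene of the SERCA2 pump, had 1465 ± 138. Casq2, the gene of cardiac calsequestrin, the main calcium buffer inside the store, followed at 495 ± 54.9 CPM per kb. Hrc, a histidine-rich calcium-binding protein of the store, had 112 ± 19.5 CPM per kb, and Ryr2, the release channel, had 75.1 ± 9.60. Each of these 5 genes was above the next lower gene in all 8 libraries, with ranges that did not overlap. With the longest annotated transcript as the length, Ryr2 and Hrc changed places at 129 and 120 CPM per kb and their ranges overlapped.

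The remaining members lay far lower on the length-scaled level. Trdn, whose product triadin anchors calsequestrin to the release channel, had 22.0 ± 2.36 CPM per kb (SD, n = 8), Slc8a1, the sodium-calcium exchanger NCX1, had 21.6 ± 4.26, and Asph had 17.4 ± 1.23. Slc8a1 overlapped in range with both of the others, while Trdn was above Asph in all 8 libraries. With the longest annotated transcript as the length, Asph, at 41.7 CPM per kb, was above Slc8a1, at 22.0, in all 8 libraries, and overlapped with Trdn at 45.5. Asph is 1 locus for the junctional protein junctin and for an aspartyl hydroxylase, and with 20 annotated transcripts its count cannot tell these products apart. Sln, the gene of sarcolipin, had 3.06 ± 3.81 CPM per kb and Itpr2, an inositol trisphosphate receptor that releases calcium on another signal, had 2.09 ± 0.347, again with overlapping ranges.

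On GRCm38, in GENCODE M21, the release genes lie at chr13:11553102-12106945 (Ryr2, minus strand), chr6:146108299-146502223 (Itpr2, minus), chr10:33080554-33476709 (Trdn, plus) and chr4:9448069-9669344 (Asph, minus). The uptake genes lie at chr5:122453513-122502225 (Atp2a2, minus), chr10:53337667-53345987 (Pln, plus) and chr9:53850164-53854560 (Sln, plus). Casq2 lies at chr3:102086415-102146514 and Hrc at chr7:45335290-45338974, both on the plus strand, and Slc8a1 at chr17:81373105-81738377 on the minus strand. Gm47644, on the opposite strand, overlaps 59.59% of the exon bases of Pln, and Clvs1 overlaps 14.3% of those of Asph. Clvs1 had 37 counts in all 8 libraries together. With no strand setting stated for the counts, reads of Gm47644 in the count of Pln cannot be told apart.

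Members differed widely in how much they varied between libraries. Before length scaling, the coefficient of variation over the 8 libraries was 7.0% for Pln, 7.11% for Asph and 9.40% for Atp2a2. It was between 10.8 and 19.8% for Trdn, Casq2, Ryr2, Itpr2, Hrc and Slc8a1. Sln stood apart at 125%, on counts from 2 to 382 per library.

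**Figure D1:**
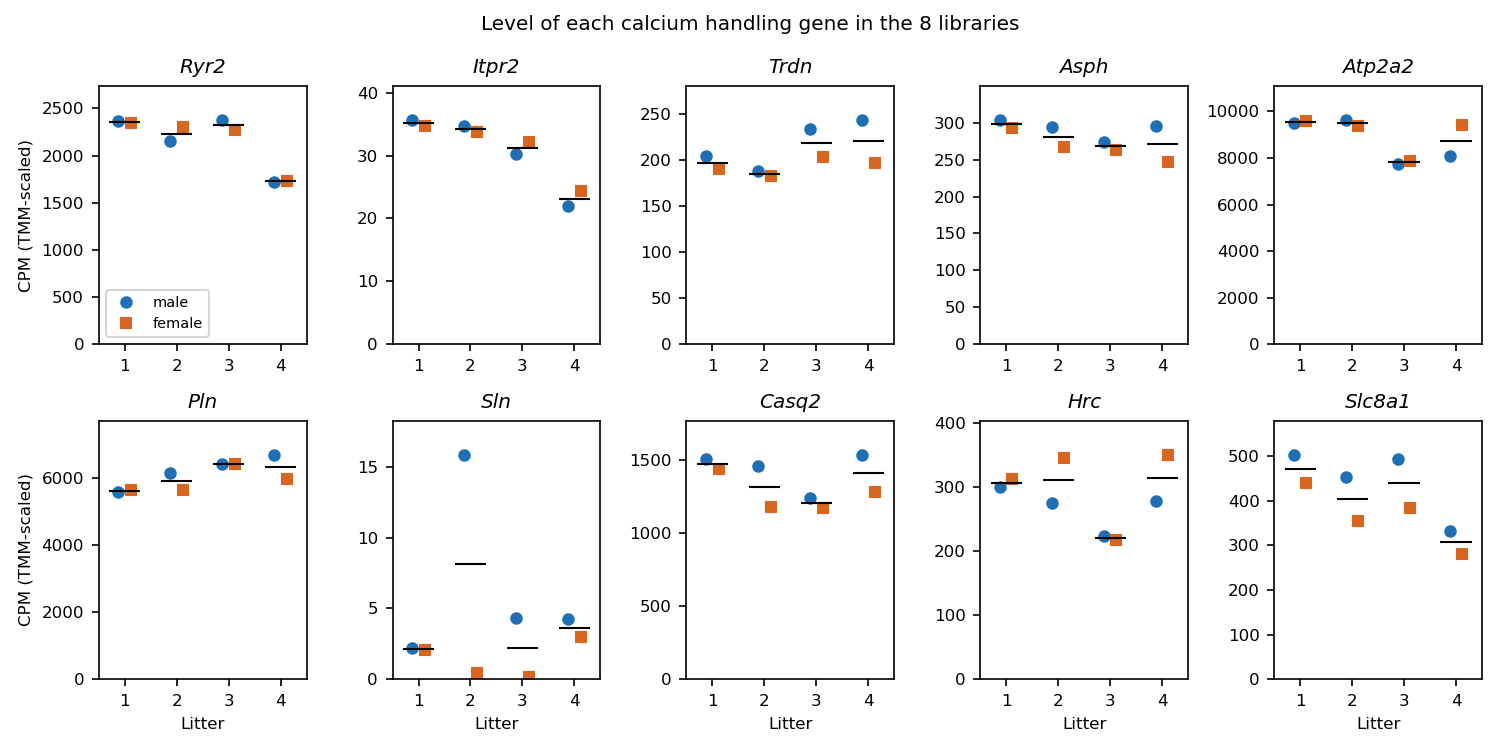
TMM-scaled CPM of each of the 10 genes (vertical axis, from 0) by litter (horizontal axis). Circles are males, squares are females and bars are the mean of each litter (n = 2). Ryr2, Itpr2 and Slc8a1 were lowest in litter 4, Atp2a2 and Hrc in litter 3, and Sln was highest in the male of litter 2.

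Litters were compared to ask whether these genes differ between families of pups of the same age. Of the 10 genes, 6 passed in edgeR's quasi-likelihood test over the 4 litters with adjusted p under 0.05, where 32.1% of all genes tested did. These were Ryr2, Itpr2, Atp2a2, Casq2, Hrc and Slc8a1. Trdn, Asph, Pln and Sln did not pass, with adjusted p-values of 0.0667, 0.287, 0.137 and 0.277. Without a filter on low counts, 9 of 10 passed, as did 23.0% of 24853 genes, with Trdn, Pln and Sln at edgeR adjusted p = 0.0318, 0.00890 and 3.39e-14. Sln also differed widely within litters. Its male and female had 15.9 and 0.449 CPM in litter 2, and 4.29 and 0.137 CPM in litter 3. The value of Sln without the filter is therefore not read as a difference between litters. The median range over litters was 0.37 on the log2 scale for the 10 genes and 0.37 for all genes tested. In bulk RNA, fewer cells of a type and less RNA per cell cannot be told apart. The test has 3 residual degrees of freedom, and the 6 genes called became 3 (Ryr2, Itpr2 and Slc8a1) without litter 3 or without its female alone. Of 12 fits that left out a library or a litter, Slc8a1 passed in each, Ryr2 and Itpr2 failed without litter 4 (adjusted p = 0.495 and 0.284), and Atp2a2 failed in 7 and Casq2 in 6. Sln passed without the female of litter 2 (0.0104), and Trdn passed without litter 4 or its female. With a correction for transcript length, 4 members passed, Itpr2, Trdn, Hrc and Slc8a1 (0.0394, 0.0261, 0.00996 and 0.0137), where 28.3% of genes did, and Ryr2, Atp2a2 and Casq2 failed (0.172, 0.0612 and 0.0943).

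Both pups of litter 4 had low levels of Ryr2, Itpr2 and Slc8a1. Ryr2 had 1725 CPM in the male and 1736 CPM in the female of litter 4, against 2372 and 2350 CPM in litter 1, 2153 and 2308 CPM in litter 2, and 2381 and 2274 CPM in litter 3. The groups did not overlap, and the pups of litter 4 were nearly equal. Against the mean of the other 3 litters Ryr2 fell by 0.41 on the log2 scale (SE 0.06, edgeR adjusted p = 0.00297).

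Itpr2 followed the same division of litters. Its level was 22.0 CPM in the male and 24.3 CPM in the female of litter 4, on 394 and 579 counts. The other 6 libraries lay between 30.3 and 35.7 CPM, with a median of 34.2. Itpr2 fell by 0.53 on the log2 scale (SE 0.08, edgeR adjusted p = 0.00297) in litter 4.

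Slc8a1 had 333 CPM in the male and 281 CPM in the female of litter 4. In males of litters 1 to 3 it had 504, 453 and 495 CPM, and in females 441, 354 and 385 CPM. Litter 4 lay below all other libraries, though its male was only slightly below the female of litter 2. Slc8a1 fell by 0.51 on the log2 scale (SE 0.06, edgeR adjusted p = 0.00141). Among all genes tested, 5.80% were called lower in litter 4 and 8.80% had both libraries of litter 4 below the other 6. The calls of the 3 genes were kept when any 1 library or any other litter was left out (11 fits), with adjusted p-values of at most 0.0448.

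Ryr2, Itpr2 and Slc8a1 have the longest transcripts of the 10 genes, and long transcripts as a class were low in litter 4. The longest annotated transcripts were 16.8 kb for Ryr2, 11.7 kb for Itpr2 and 18.5 kb for Slc8a1, against 6.69 kb at most for the other 7 genes. The 224 tested genes with transcripts over 11 kb had a median log2 change of -0.25 in litter 4, with quartiles of -0.41 and -0.09, and 40.6% of them were called lower. The 1845 genes under 1.5 kb had a median of 0.14. All 3 members lay at or below the lower quartile of their length class.

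With a correction of each library for transcript length, chosen after the data were seen, the change in litter 4 shrank to -0.14 for Ryr2 (edgeR adjusted p = 0.179) and -0.29 for Itpr2 (0.0598), and neither was called. Slc8a1 remained called at -0.24 (0.0449). Under this correction 3.34% of 13314 genes were called in litter 4, against 10.5% without it. The part of transcript length in these changes was not otherwise tested. Median deviations of genes over 11 kb from their mean over libraries were -0.21 and -0.19 for the male and female of litter 4, and 0.03 to 0.11 in the other 6 libraries.

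**Figure D2:**
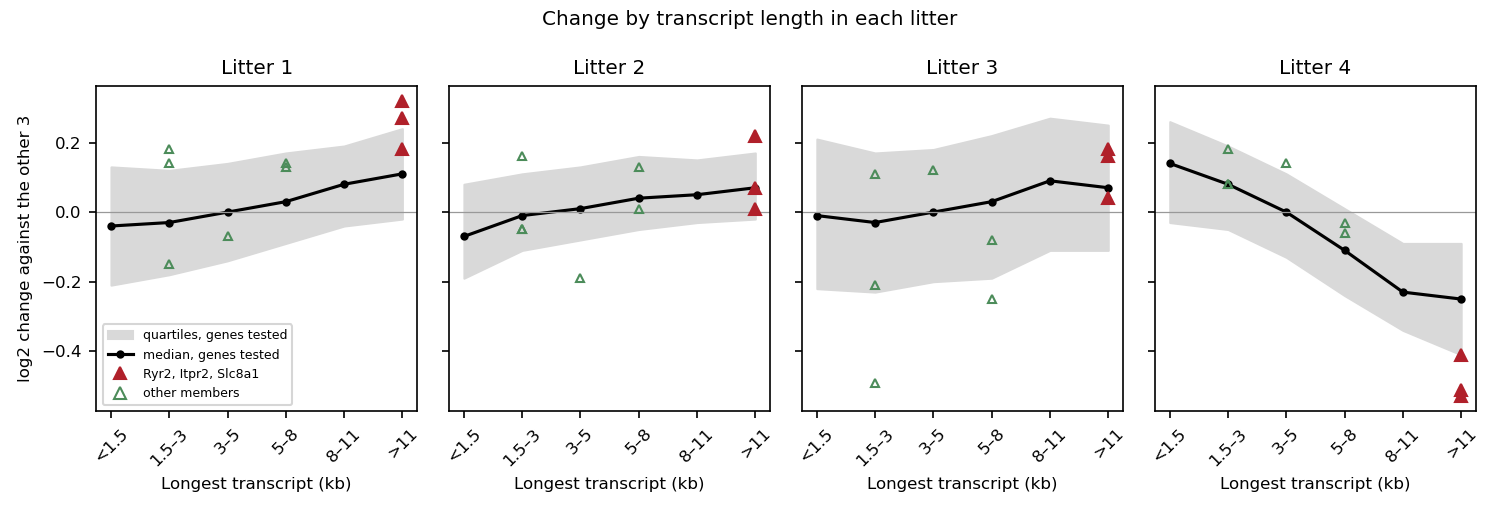
Log2 change in each litter against the mean of the other 3 (vertical axis) by length class of the longest annotated transcript in kb (horizontal axis). The line is the median and the band the quartiles of all genes tested in the class, filled triangles are Ryr2, Itpr2 and Slc8a1, and open triangles are the other members without Sln. In litter 4 the median runs from 0.14 in the shortest class to -0.25 in the longest.

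Because these 3 genes were low in the same litter, the stretch before each start site is shown, as 250 bases from RefSeq on GRCm38.p6, written 5′ to 3′ on the gene's strand. Promoter entries were matched by symbol for 6 of the 10 members. Capitals mark matches on either strand to 5 motifs. The core promoter element was searched as TATAAA. The motif of GATA factors was searched as AGATAA. The motif of TEAD factors was searched as CATTCC. The CArG box and the MEF2 box were the others, and no marked matches overlap. Ryr2 lies on chr13:12106946-12107195, minus strand, Itpr2 on chr6:146502224-146502473, minus strand, and Slc8a1 on chr17:81738388-81738637, minus strand.
Ryr2: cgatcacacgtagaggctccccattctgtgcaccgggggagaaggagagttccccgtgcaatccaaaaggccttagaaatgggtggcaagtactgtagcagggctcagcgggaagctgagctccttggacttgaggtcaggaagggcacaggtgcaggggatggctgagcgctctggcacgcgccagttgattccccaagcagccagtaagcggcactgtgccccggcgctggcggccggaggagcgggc
Itpr2: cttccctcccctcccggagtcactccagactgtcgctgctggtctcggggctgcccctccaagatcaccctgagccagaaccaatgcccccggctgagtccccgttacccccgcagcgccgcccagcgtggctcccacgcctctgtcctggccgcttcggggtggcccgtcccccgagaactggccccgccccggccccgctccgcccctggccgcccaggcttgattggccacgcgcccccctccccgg
Slc8a1: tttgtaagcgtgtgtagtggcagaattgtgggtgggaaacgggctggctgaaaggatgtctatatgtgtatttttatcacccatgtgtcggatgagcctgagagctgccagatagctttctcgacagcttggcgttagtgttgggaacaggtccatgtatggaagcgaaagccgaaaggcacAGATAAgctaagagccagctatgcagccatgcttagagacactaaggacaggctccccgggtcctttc
The Slc8a1 stretch holds 1 AGATAA, 68 bases before the start, a motif found in 9.99% of 32851 promoter windows of this length. The Ryr2 and Itpr2 stretches hold none of the 5 motifs, and 63.2% and 74.4% of their bases are G or C, against 50.4% for Slc8a1 and a median of 52.4% over all windows. The 3 stretches share no motif that was searched.

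In litter 3 the pump and both storage genes were low. Atp2a2 had 7751 CPM in the male and 7874 CPM in the female of litter 3. It had 9498 and 9595 CPM in litter 1, 9646 and 9380 CPM in litter 2, and 8094 and 9406 CPM in the male and female of litter 4. Both libraries of litter 3 were below the other 6, and the male of litter 4 came next. Atp2a2 fell by 0.25 on the log2 scale (SE 0.06, edgeR adjusted p = 0.0139) against the other 3 litters.

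Hrc showed the clearest separation in litter 3. It had 223 CPM in the male and 218 CPM in the female, and the other 6 libraries lay between 276 and 351 CPM. Hrc fell by 0.49 on the log2 scale (SE 0.08, edgeR adjusted p = 0.000882), and the call was kept in all 11 fits without 1 library or 1 other litter. Of all genes tested, 14.8% were called lower in litter 3 and 16.4% had both of its libraries below the other 6.

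Casq2 was lower in litter 3 but without a gap between groups. It had 1240 CPM in the male and 1173 CPM in the female of litter 3, while the female of litter 2 had 1183 CPM and the female of litter 4 had 1287 CPM. The remaining libraries had 1445 to 1541 CPM. Casq2 fell by 0.21 (SE 0.06, edgeR adjusted p = 0.0270). This call was lost in 5 of the 11 fits that left out 1 library or litter (up to adjusted p = 0.285) and with the correction for transcript length (0.0808, with 13.2% of genes called lower), and that of Atp2a2 was lost in 4 (up to 0.143), with changes of -0.28 to -0.21 over the 11 fits.

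Slc8a1 rose by 0.18 in litter 3 (SE 0.06, edgeR adjusted p = 0.0384), where 13.6% of genes were called higher, against a mean that includes the low litter 4. Without litter 4 the change was 0.01 (adjusted p = 0.880). Ryr2 differed there by 0.16 (SE 0.06, edgeR adjusted p = 0.0548), and was called with library size alone, with DESeq2 or its size factors, without a filter on low counts and with mitochondrial genes left out. It was not called with the correction for transcript length or without litter 4. The mean of Ryr2 was 2328 CPM in litter 3, 2361 CPM in litter 1 and 1730 CPM in litter 4. In litter 1, Ryr2, Itpr2 and Slc8a1 were called higher by 0.18, 0.27 and 0.32 (adjusted p = 0.0489, 0.0252 and 0.00355), where 7.86% of genes were called higher, and without litter 4 these became 0.05, 0.11 and 0.17 with no call. Trdn had both pups of litter 2 below the other 6 libraries, as 3.60% of genes did. No member was called in litter 2 in the edgeR test as described, where 4.18% of genes were, or in DESeq2, and Itpr2 and Trdn had an unadjusted p under 0.05, as 17.9% of all genes did. In edgeR, Atp2a2 and Sln were called there without a filter on low counts, Sln without the female of litter 2 and Itpr2 without litter 1.

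Most markers of cardiomyocytes were also lower in litter 3. The summed level of the 8 cardiomyocyte markers averaged 59090 CPM in litter 3, below the 74764 to 74933 CPM of other litters. Tnnt2 and Ttn, 2 of the 8, had a higher mean in litter 3. Most of the gap in the sum came from Myh6 and Actc1. Myh6 had 16908 and 16082 CPM there against 20373 to 29048 CPM, and Actc1 had 9127 and 7882 CPM against 12441 to 14618 CPM. The 6 ventricular markers summed to 10775 CPM there, against 12817 to 14925 CPM, with Myl2 making up most of the sum, and 2 of the 6, Irx4 and Hey2, had a higher mean in litter 3. The 5 erythroid markers summed to 528 CPM in its male but 183 CPM in its female, which was below the females of litters 1 and 4 at 210 and 217 CPM, and 7 of 8 fibroblast markers were lower. Of 12 atrial markers 7 were higher, and their sum was mostly Nppa, at 1175 CPM in the male and 1510 CPM in the female against 178 to 474 CPM in the other 6 libraries. The 7 mural markers were mixed, with 2 of them, Cspg4 and Abcc9, higher in litter 3. Acta2, of the same list, had 369 and 343 CPM there against 804 to 1036 CPM. Endothelial markers were higher in litter 2 alone, with 0 of 8 higher in litters 1, 3 and 4. The part of these differences in the low Atp2a2, Hrc and Casq2 was not tested.

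**Figure D3:**
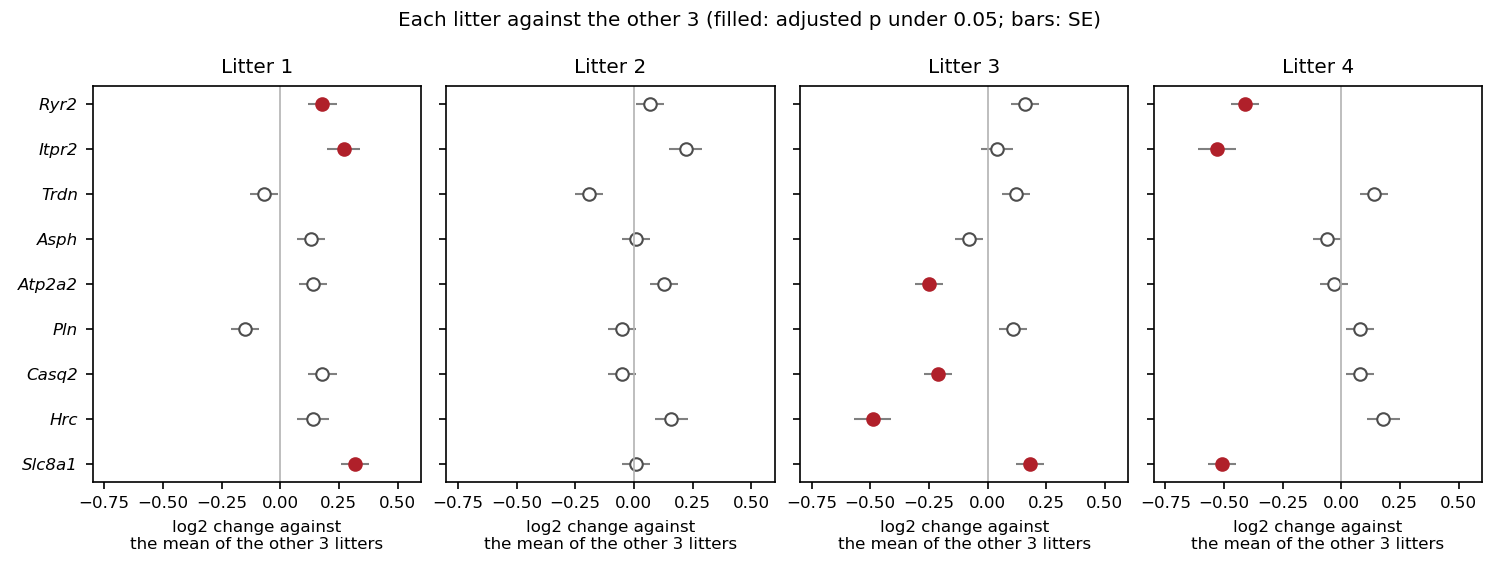
Log2 change of 9 genes in each litter against the mean of the other 3 litters (horizontal axis), with bars of 1 SE. Filled points had an adjusted p under 0.05 in edgeR, and Sln is left out for its large error. Atp2a2, Casq2 and Hrc were called lower in litter 3 and Ryr2, Itpr2 and Slc8a1 in litter 4.

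The start sites of the storage genes Casq2 and Hrc, which fell in litter 3, are set beside that of Pln, which did not. Casq2 lies on chr3:102086165-102086414, Hrc on chr7:45335019-45335268 and Pln on chr10:53337436-53337685, all on the plus strand, with capitals as above.
Casq2: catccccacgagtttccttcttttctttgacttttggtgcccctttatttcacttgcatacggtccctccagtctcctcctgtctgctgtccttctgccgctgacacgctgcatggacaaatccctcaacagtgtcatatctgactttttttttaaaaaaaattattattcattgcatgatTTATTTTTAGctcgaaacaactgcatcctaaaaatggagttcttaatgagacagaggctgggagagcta
Hrc: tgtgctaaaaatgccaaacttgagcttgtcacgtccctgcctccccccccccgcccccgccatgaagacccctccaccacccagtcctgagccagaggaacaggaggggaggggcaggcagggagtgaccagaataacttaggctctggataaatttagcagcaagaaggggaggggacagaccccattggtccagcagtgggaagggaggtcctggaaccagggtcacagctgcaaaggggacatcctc
Pln: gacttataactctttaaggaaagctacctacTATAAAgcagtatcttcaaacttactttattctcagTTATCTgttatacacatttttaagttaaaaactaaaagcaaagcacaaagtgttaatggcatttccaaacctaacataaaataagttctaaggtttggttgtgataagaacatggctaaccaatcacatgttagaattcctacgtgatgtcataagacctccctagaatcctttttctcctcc
Casq2 holds 1 MEF2 box, 69 bases before the start, and 2.92% of all windows hold one. Pln holds 1 TATAAA and 1 AGATAA on the opposite strand, at 219 and 183 bases before the start, and TATAAA occurs in 12.4% of all windows. Hrc holds none of the 5 motifs. For CATTCC, in 12.6% of windows, and the CArG box, in 1.47%, there was no match in any of the 6 stretches. G or C make up 32.8% of the Pln stretch, 41.6% of that of Casq2 and 59.6% of that of Hrc.

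Phospholamban holds the pump back when it is not phosphorylated, so the ratio of Pln to Atp2a2 was read in each library. It was 0.588 and 0.590 counts of Pln per count of Atp2a2 in the male and female of litter 1, and 0.639 and 0.603 in litter 2. In litter 3 it was 0.830 and 0.818, and in litter 4 the male had 0.83 and the female 0.636. Litter 3 and the male of litter 4 were thus high and the other 5 libraries were low, with no value between 0.639 and 0.818. Per length, Pln stood at 1.29 to 1.83 times Atp2a2 over the 8 libraries.

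Of the sex-centred variance of the log2 Pln to Atp2a2 ratio, 85.9% lay between litters (exact permutation p = 0.0417, one-sided over 24 matchings of females to males, the smallest they can give). Adjusted over the 8 ratio tests by sex and by litter this was 0.152, and no ratio test passed. By gene, Pln ran from 5580 and 5665 CPM in litter 1 to 6434 and 6440 CPM in litter 3, while Atp2a2 was lowest in litter 3. Pln alone was not called in any litter, with 6166 and 5660 CPM in litter 2 and 6713 and 5986 CPM in litter 4. In litter 3, Pln was called higher with the correction for transcript length, at 0.17 (edgeR adjusted p = 0.0479, where 29.1% of genes were called), and without litter 4, at 0.17 (0.0310), against 0.11 (0.175) in the test as described. In litter 1 it was called lower, at -0.14 (0.0242), with no filter on low counts. By sex the ratio differed by 0.12 on the log2 scale, males minus females (exact permutation p = 0.486, two-sided, adjusted 0.648).

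The exchanger was also set against the pump, as the other route by which calcium leaves the cytosol. In males there were 53.1, 47.0, 63.8 and 41.1 counts of Slc8a1 per 1000 counts of Atp2a2 in litters 1 to 4, and in females 45.9, 37.7, 48.9 and 29.9. The male was above the female in each of the 4 litters, and litter 3 was highest and litter 4 lowest in both sexes. Between litters lay 96.8% of the sex-centred variance (exact permutation p = 0.0417, the smallest possible, adjusted 0.152). Between the sexes the difference was 0.34 on the log2 scale (exact permutation p = 0.171, two-sided, adjusted 0.274).

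Among release channels, Itpr2 stayed a small fraction of Ryr2. There were 12.7 to 16.1 counts of Itpr2 per 1000 counts of Ryr2, which is 0.0248 to 0.0314 per length. The ratio was highest in the male of litter 2 and lowest in the males of litters 3 and 4. It differed by -0.03 between the sexes (exact permutation p = 0.771, adjusted 0.771), and 68.7% of its sex-centred variance lay between litters (exact permutation p = 0.167, adjusted 0.274). In litter 4, where both genes were low, the ratio of both pups lay within or at the edge of the range of the other litters.

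**Figure D4:**
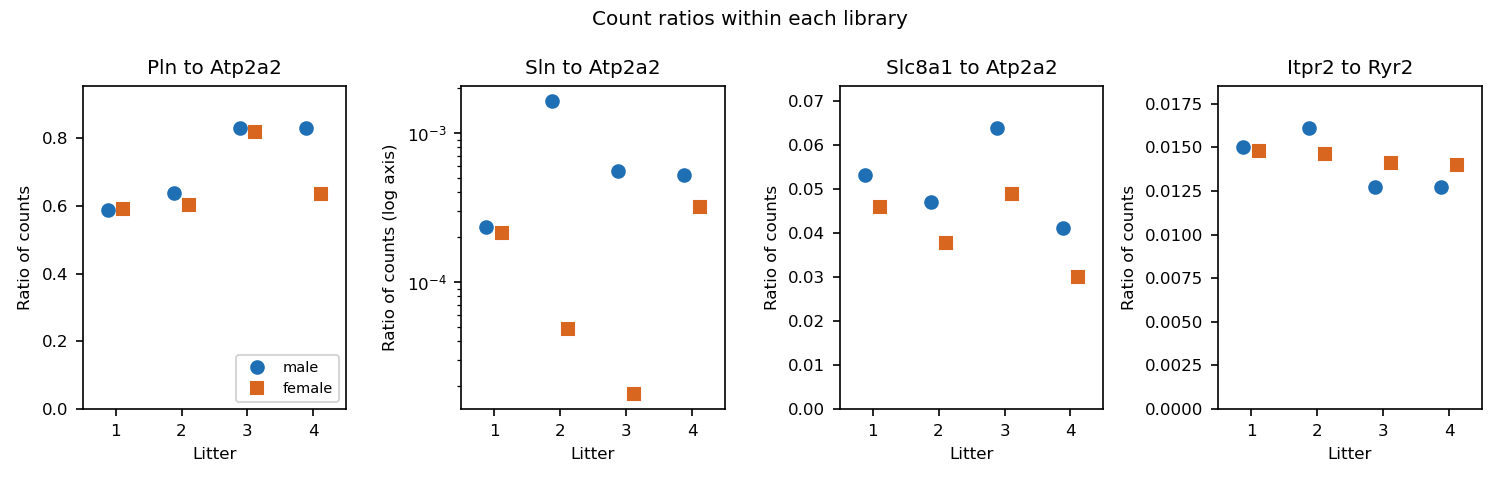
Ratio of counts within each library (vertical axis, logarithmic for Sln to Atp2a2 and from 0 in the other panels) by litter, with males as circles and females as squares. Pln to Atp2a2 was 0.818 to 0.830 in litter 3 and the male of litter 4, and Slc8a1 to Atp2a2 was higher in the male of every litter.

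Sln was scarce and uneven. Sarcolipin, a relative of phospholamban that also restrains the pump, is known in the mouse heart mainly from the atria. Males had 55, 382, 99 and 76 counts of Sln in litters 1 to 4, or 2.21, 15.9, 4.29 and 4.24 CPM, and females had 50, 10, 2 and 71 counts, or 2.05, 0.449, 0.137 and 2.98 CPM. The male was above the female in every litter, but in litter 1 the values were close and the male of litter 1 was below the female of litter 4. Per 1000 counts of Atp2a2 there were 0.0175 to 1.65 counts of Sln, against 588 to 830 of Pln.

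Sln did not pass between sexes, with a log2 change of 2.18 (SE 0.77, edgeR adjusted p = 1.00, unadjusted 0.0170). Without the male of litter 2 the change was 1.28, and with the litter block it was 1.97, or 1.01 without litter 2. The log2 ratio of Sln to Atp2a2 was 2.73 higher in males (exact permutation p = 0.0571, two-sided, adjusted 0.152) and 29.6% of its sex-centred variance lay between litters (exact permutation p = 0.750, adjusted 0.771). Without litter 3, whose female had 2 counts, the ratio difference was 1.98, and without litter 2 it was 1.94.

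Some markers of atrial cardiomyocytes were highest in the same library as Sln. Of 12 such markers, 8 were highest in the male of litter 2, where Sln was highest too, while Stard10 and Tbx5 were highest in the male of litter 3, Kcna5 in the female of litter 2 and Nppa in the female of litter 3, where Sln was lowest. A higher mean in males was found for 10, and a higher male in all 4 litters for 6. Myl7, the atrial myosin light chain, had 41.4, 152, 35.9 and 59.4 CPM in males of litters 1 to 4 and 24.5, 6.96, 18.3 and 42.3 CPM in females. Myl4, another atrial light chain, had 160 CPM in the male and 19.2 CPM in the female of litter 2. In the female of litter 3, where Sln was at 0.137 CPM, the markers were mixed. Nr2f1 and Nr2f2 were lowest there of the 8 libraries, at 0.137 and 0.619 CPM, and Fgf12 and Kcna5 were low at 0.137 and 0.344 CPM, while Myl4 had 70.8 CPM and Bmp10, an atrial growth factor, 9.83 CPM. The summed level of the 12 markers was 460 to 1434 CPM in males and 297 to 1716 CPM in females, led by Nppa, and none of the 12 was at 0 in all libraries. Their part in the level of Sln was not tested.

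**Figure D5:**
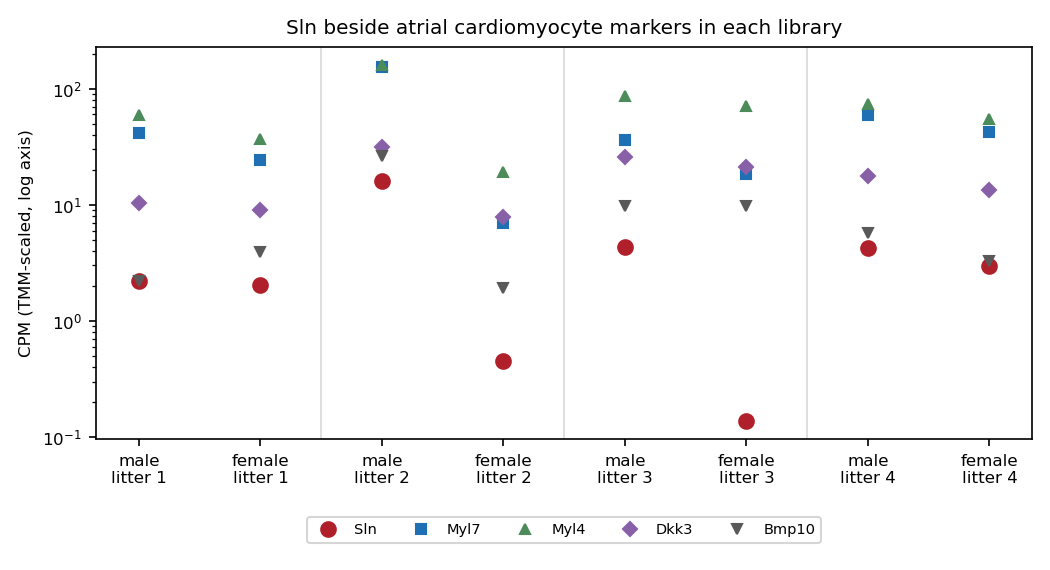
TMM-scaled CPM on a logarithmic axis of Sln and of the atrial markers Myl7, Myl4, Dkk3 and Bmp10 in each of the 8 libraries, ordered by litter. These 5 genes were highest in the male of litter 2, and Sln was lowest in the female of litter 3 at 0.137 CPM. Of the 12 markers, Nppa, Kcna5, Stard10 and Tbx5, not drawn, were highest in other libraries.

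The comparison of sexes asked whether calcium handling transcripts differ with sex in the newborn heart. None of the 10 genes passed in edgeR's quasi-likelihood test, where 0.0436% of all genes tested did and 306 had an unadjusted p under 0.05. DESeq2 also called 0 of the 10. Of the members, Sln alone had an unadjusted p under 0.05, and with a litter block 6 of 10 had (Slc8a1, Sln, Casq2, Trdn, Hrc and Asph), against 11.6% of all genes. Log2 changes, males minus females, lay between -0.19 for Hrc (SE 0.15) and 0.29 for Slc8a1 (SE 0.16) for the 9 genes other than Sln, with adjusted p-values of 1.00.

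Slc8a1 was higher in the male of each litter. The 4 males averaged 446 ± 78.8 CPM (SD) and the 4 females 365 ± 66.6 CPM, and the male to female ratio was 1.14, 1.28, 1.28 and 1.18 in litters 1 to 4. When each male was compared with the female of its own litter, by a litter block in the model, Slc8a1 rose in males by 0.29 on the log2 scale (SE 0.05, edgeR adjusted p = 0.0466), where 0.211% of genes were called. Without litter 1, 2, 3 or 4 the blocked adjusted p was 0.0977, 0.328, 0.133 or 0.0769, and the log2 change was 0.32, 0.25, 0.25 or 0.30, so the call was lost with any litter left out while the change stayed close to 0.29.

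Sln, Trdn, Asph and Casq2 also had the male above the female in all 4 litters, as 10.9% of all genes tested did, but were not called with or without the block. Casq2 averaged 1437 ± 136 CPM over males against 1272 ± 126 CPM over females (SD, n = 4), with a blocked log2 change of 0.18 (SE 0.05, edgeR adjusted p = 0.295). Trdn had 204, 188, 234 and 244 CPM in males of litters 1 to 4 and 190, 183, 203 and 197 CPM in females. Asph had 304, 294, 274 and 295 CPM in males and 293, 267, 263 and 247 CPM in females. With the block, Ryr2 differed by -0.01 (SE 0.05), Itpr2 by -0.03 (SE 0.06), Atp2a2 by -0.05 (SE 0.05) and Pln by 0.07 (SE 0.05), and Hrc, with male and female means of 270 ± 33.2 and 307 ± 61.7 CPM (SD, n = 4), by -0.17 (SE 0.07, adjusted p = 0.372). All 8 fibroblast markers had a higher mean in males and 0 of 8 endothelial markers did, and their part in the differences above was not tested.

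Other genes of release and the junction with the cell membrane were low in litter 3. Of 15 tested genes of this list, 6 passed in the litter test and 6 were called lower in litter 3, where 14.8% of all genes were, and 0 higher. The list's median change in litter 3 was -0.42, against 0.00 for all genes tested. Tmem38a, a potassium channel of the store membrane that balances charge during release, was at 194 ± 7.61 CPM in litter 3, below the 266 to 286 CPM of other litters (SD, n = 2; edgeR adjusted p = 0.000117), and was called higher in litter 1 by 0.23 (0.0269). Jph2, which ties the store to the cell membrane, was at 364 ± 48.8 CPM there and at 487 to 507 CPM elsewhere (0.00359). Sypl2 fell by 0.73 in litter 3 (0.0275), on 1.58 to 3.58 CPM.

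In the list of uptake regulators, 4 of 11 tested genes passed in the litter test, which like the list counts that follow is to be read against 32.1% of all genes. Ppp1r1a, an inhibitor of the phosphatase that acts on phospholamban, rose by 0.46 in litter 4 (SE 0.08, edgeR adjusted p = 0.00768), at 25.6 ± 0.800 CPM against 17.1 to 20.2 CPM (SD, n = 2), and was called lower in litter 1 by -0.32 (0.0322). Ppp1ca, a catalytic subunit of that phosphatase, also rose there, by 0.23 (0.0205). Their longest transcripts are 1.31 and 1.47 kb, and genes under 1.5 kb had a median change of 0.14 in litter 4, with an upper quartile of 0.26 and 11.6% called higher. Akap7, an anchor for protein kinase A, rose by 0.31 in litter 3 (0.00534), and Ppp1r3a was called higher in litter 1 by 0.31 (0.0158) and lower in litter 3 by -0.24 (0.0317). Of the small proteins that regulate the pump, Strit1 had 0 to 0.135 CPM and Mrln 0 to 0.208 CPM, too few counts to test.

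In the list of storage and folding proteins, 4 of 13 genes passed in the litter test, and in litter 3, 6 were called lower and 1 higher, where 14.8% and 13.6% of all genes were. Hsp90b1, a chaperone of the store, fell by 0.36 in litter 3 (edgeR adjusted p = 0.00123), Pdia6 by 0.42 (0.00331) and Calr, the calcium-binding chaperone calreticulin, by 0.45 (0.0127). The gene that rose was Casq1, the skeletal form of calsequestrin, by 0.46 (0.00645), while the cardiac form Casq2 fell. Casq1 averaged 23.4 ± 2.01 CPM in litter 3, above the 15.7 to 18.5 CPM of other litters.

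Of the 8 tested genes for exchange, membrane pumps and refilling, 4 passed in the litter test. Atp2b1, a calcium pump of the cell membrane, fell by 0.41 in litter 4 (edgeR adjusted p = 0.00429), the litter in which Slc8a1 fell, with 49.4 ± 2.16 CPM against 63.3 to 68.0 CPM (SD, n = 2). Its longest transcript is 7.13 kb. Atp2b4, a related pump, averaged 9.46 ± 0.0344 CPM in litter 2, above the 3.49 to 3.72 CPM of other litters (adjusted p in the litter test = 0.000380). In litter 2 all 8 endothelial markers were higher as well, at a sum of 130 CPM against 19.3 to 43.2 CPM, and their part was not tested. Orai3, a channel of store refilling, rose by 0.51 in litter 3 (0.00870).

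In the mitochondrial calcium list, 3 of 7 tested genes passed, all lower in litter 3: Letm1 by 0.46, Mcu, the pore of the uniporter, by 0.46, and Smdt1 by 0.26 (edgeR adjusted p = 0.00105, 0.00617 and 0.00970). Letm1 was also called higher in litter 1, by 0.24 (0.0468). Among kinases and phosphatases 5 of 18 passed. Pde4d and Pde4b, which break down cyclic AMP, fell in litter 4 by 0.44 and 0.45 (0.00487 and 0.0149), and Pde4d was called higher in litter 1 by 0.26 (0.0259). Akap6, an anchor near the release channel with a transcript of 14.8 kb, was called higher in litter 1 by 0.37 (0.00152) and lower in litters 3 and 4, by -0.21 and -0.23 (0.020 and 0.0322). Rcan1, an inhibitor of calcineurin, fell by 0.44 in litter 3 (0.000839). Over the 6 lists, 26 of 72 tested genes passed in the litter test, 20 were called lower in litter 3 and 4 lower in litter 4, against 32.1%, 14.8% and 5.80% of all genes. Between sexes edgeR called 0 of the 72, with 5 at an unadjusted p under 0.05, where 2.22% of all genes had such a p. With the block it called 0, with 15 at such a p, where 11.6% of all genes had one.

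The genes whose log2 CPM followed a member most closely over the 8 libraries were sought among 11156 genes with a mean of at least 50 counts. For Ryr2 they were Mtmr12, Etnk1 and Prrc2c (Pearson r = 0.987, 0.985 and 0.983). For Atp2a2 they were Slc12a4, Iqgap1 and Trim7 (0.985, 0.979 and 0.978), and for Pln they were Tceanc, Aamdc and Slc35f1 (0.982, 0.948 and 0.948). For Sln they were 2700049A03Rik, Tspan2 and Sbk2 (0.949, 0.930 and 0.929). No other member was among the 3 closest to these 4 members. With 8 libraries in 4 pairs of litter mates and this many genes searched, high values arise readily, so they are given as a description.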

How the data were processed

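Per the labels' protocols, stranded total RNA libraries were made from 1 µg of column-purified RNA and sequenced as single reads of 100 bases, while another label names poly(A) RNA. The submitters' processing notes name STAR 2.7.3a and mm10. The counting program, annotation and strand setting are not given in the sources used here. The authors deposited raw read counts per gene symbol, 1 column for each of the 8 samples.

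Counts were filtered with filterByExpr on sex and scaled with TMM in edgeR 4.0.16 (R 4.3.3). Sexes were compared by the quasi-likelihood F test without a litter term (6 residual degrees of freedom), and litters in a model with sex, over the 3 litter coefficients and as each litter against the mean of the other 3. Those 4 contrasts share libraries. P-values were adjusted by Benjamini-Hochberg over all genes tested, at 0.05, and SE was taken from the log2 change and F. Ratios were tested by exact permutation, by sex over all libraries without regard to litter, and by litter over matchings of females to males. With sexes swapped within litters, the exact permutation p by sex was 0.125 for Slc8a1 and for Sln to Atp2a2, the smallest possible. It was 0.250 for Pln to Atp2a2 and 0.875 for Itpr2 to Ryr2. Alternatives included DESeq2 1.42.0, other scalings and filters, a litter (replicate) block for sex, mitochondrial genes left out, a transcript length correction chosen after seeing the data, and left-out libraries and litters. The members, lists and tests were chosen with earlier results of these data known. All members are named, and of each pathway list at most the 4 litter genes of largest range. One gene that this rule names is not reported here. Mcub and Strit1 were matched by older symbols.

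Lengths and positions come from GENCODE M21 on GRCm38, with a length for 96.7% of tested genes. The isoform in these cells is not known. The labels' numbers are litters. The same-litter correlation of sex-centred values across genes was 0.506, 0.503, 0.696 and 0.367, and -0.482 to 0.270 between litters. No 2 libraries of a sex agreed within sampling noise. The fits by sex, by litter and of litter 4 against the other 3 were first tested on simulated data.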

Additional observations from a re-analysis of the deposited data

Results flagged for a closer look

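In each sex, the highest or lowest of the 4 libraries was compared with the other 3 for the 10 genes and 4 ratios. Of 28 such groups, 2 had a library far outside the rest, where chance gives about 1.40. Ryr2 had 1736 CPM in the female of litter 4 against 2274 to 2350 CPM in the other females. Atp2a2 had 7874 CPM in the female of litter 3 against 9380 to 9595 CPM in the other females. In both cases the male of the same litter was also the lowest male, at 1725 CPM of Ryr2 and 7751 CPM of Atp2a2.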

How the results depend on the processing

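Of the single-gene results under an alternative, 501 kept direction and side of the threshold, or for a level per length moved by less than 1 SD, 56 lost a call, 8 gained one, 10 changed sign and 5 levels per length moved by more than 1 SD. With the replicate block, 1 member was called between sexes instead of 0. Without any filter on low counts, members called were 9 in the litter test (main 6), 7 in litter 1 (main 3) and 2 in litter 2 (main 0), and with the transcript length correction 1 in litter 1 and 1 in litter 4 (main 3). Leaving out libraries or litters, members called ranged from 3 to 7 in the litter test, 0 to 4 in litter 1, 0 to 1 in litter 2, 1 to 5 in litter 3 (Hrc alone without either pup of litter 3) and 3 to 4 in litter 4. The litter test called 1899 to 5723 genes over all alternatives (main 4427). The cause of these differences was not tested.

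Sign changes touched only sex differences close to 0. That of Ryr2 was 0.02 with the length correction, 0.01 with the replicate block without litter 2, and -0.10 to 0.08 when libraries were left out. That of Itpr2 ran from -0.13 to 0.10, that of Atp2a2 from -0.12 to 0.00, and that of the Itpr2 to Ryr2 ratio from -0.09 to 0.01. Leaving out litters, the sex difference of the ratio to Atp2a2 ran from 0.03 to 0.16 for Pln, 1.94 to 3.61 for Sln and 0.30 to 0.39 for Slc8a1. The share between litters ran from 70.5 to 99.2% for Pln, 9.42 to 42.1% for Sln, 93.9 to 98.9% for Slc8a1 and 65.5 to 76.7% for Itpr2 to Ryr2. Each litter has 2 libraries, and the labels do not separate a litter from the day it was handled. The litter tests measure only the spread between the male and female of a litter. The sex test without a block measures the spread between these pups within a sex. The ratio p-values are ranks among rearrangements of these libraries.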
